A study of Mus musculus with 11 samples.

Results

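Homer1, Pcsk1, 1700016P03Rik, Bdnf, Nptx2, Vgf, Nrn1 and Scg2 are 8 genes known to be switched on in neurons after synaptic activity, most of them later than Fos and its kind. They were found by symbol among the 25938 genes counted in a single-nucleus RNA sequencing experiment on mouse brain. They were selected on a measured result: Homer1, Pcsk1 and 1700016P03Rik rose in the neurons of mice given a free antisense oligonucleotide (ASO) against Malat1, and the other 5 were put beside them as late activity genes. Their values in that group are therefore given as a description, and where counts of calls between it and ATV:BACE1, the group it was set against, are printed, nothing is read from them. Tests are given for the 2 conjugates of the ASO against ATV:BACE1, which share the ATV:BACE1 libraries with the selection, for the conjugates against each other, which do not, and for the batch term of the same fit.

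All mice were labelled hTfR KI HOM, which means that they carried the human transferrin receptor (TfR) in homozygous form, and all received 4 weekly intravenous doses, with brain tissue frozen 72 h after the last. OTV:Malat1 is the Malat1 ASO on a carrier that binds the TfR (60 mg/kg, n = 3), and nonTV:Malat1 is a conjugate of the ASO whose carrier does not bind the TfR (60 mg/kg, n = 3). Malat1 ASO is the free oligonucleotide (2.5 mg/kg, n = 2, since its replicate 4 was not analysed here), and ATV:BACE1 binds the TfR and carries no ASO (57 mg/kg per its label, where the series text can be read as 60, n = 3). Each library carries its own sample label, but no label says outright that each is a separate mouse, so p-values measure the spread between libraries. No group was left without any dosed molecule, so a level in ATV:BACE1 is not that of an untreated brain. The label of ATV:BACE1 names BACE1, and whether this molecule had effects of its own was not tested. Female mice of 2.33 months gave replicate 1 of each group. Male mice gave the others, aged 2.57 months in replicate 4 and 2.33 in replicate 5. The replicates coincide with the deposited batches 1, 3 and 4, so neither sex nor age can be told apart from batch. Sex and age do not coincide with each other, since replicates 4 and 5 share their sex and replicates 1 and 5 their age. The labels give the brain region as posterior and the strain as human TfR knock-in, whereas the deposited metadata give cortex and C57BL/6J.

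Synaptic activity raises calcium in a neuron and activates kinases that reach the nucleus, where factors such as CREB, MEF2 and SRF switch on transcription. Transcription factors of the Fos and Egr families come first. Effector genes that change the synapse and the secretory pathway follow, among them scaffold proteins, growth factors and the enzymes and cargo of dense-core vesicles.

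The 11 libraries held 33235994 to 43972886 UMIs (unique molecular identifiers, each standing for 1 captured RNA molecule) from 7546 to 13840 nuclei, 110304 in all. The deposited class column named 76211 nuclei neurons, 4873 to 11199 per library. Their median depth was 2567 to 5259 UMIs, and OTV:Malat1 replicate 5 had the most nuclei and the lowest depth. Of 108788 distinct barcodes, 1495 (1.37%) occurred in more than 1 library, with at most 57 in any pair. Malat1 itself, the target of the ASO, was at 41848 to 51650 CPM (UMI counts scaled to library size) in the neurons of OTV:Malat1 and at 70974 to 80504 in the other 3 groups, the free ASO included. All 5 excitatory and all 8 inhibitory neuron markers were detected in neurons over the 11 libraries together. Astrocyte markers in neurons summed to 387 to 408 CPM in Malat1 ASO and 424 to 501 in ATV:BACE1, and oligodendrocyte markers to 449 to 508 and 412 to 418. In nonTV:Malat1 oligodendrocyte markers summed to 437 to 478, also above ATV:BACE1, and choroid plexus markers to 377 to 486 against 257 to 286 in OTV:Malat1. These ranges do not overlap, and they are not the only ones, while many other pairs of groups overlapped. Astrocyte markers in nonTV:Malat1 (425 to 495) also lay above Malat1 ASO. Choroid plexus markers in Malat1 ASO (327 to 335) lay between the 2 conjugates. Endothelium markers in OTV:Malat1 (24.1 to 26.8) lay below Malat1 ASO (27.7 to 29.4). How often ranges part by chance was not tested. No marker of these lists was at 0 over the 11 libraries together, and the part of these marker differences in the results below was not tested. Called doublets, which were kept, made up 14.1% to 20.3% of the neurons in ATV:BACE1, 10.4% to 12.5% in nonTV:Malat1, 12.4% to 12.5% in Malat1 ASO and 9.30% to 16.4% in OTV:Malat1, so ATV:BACE1 lay above nonTV:Malat1 and Malat1 ASO without overlap. Without called doublets the log2 difference of Homer1 from ATV:BACE1 in neurons was 0.43 in OTV:Malat1, 0.39 in nonTV:Malat1 and 0.73 in Malat1 ASO, close to the values with them given below. Each bulk value below is a sum over nuclei, in which fewer nuclei of a type and less RNA per nucleus cannot be told apart.

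Homer1 encodes a postsynaptic scaffold that links group I metabotropic glutamate receptors to other proteins of the synapse, and activity is known to induce a short form of it that lacks the part used for linking. The gene lies at chr13:93299635-93405129 on the plus strand (mm10, GENCODE M21) with 12 annotated transcripts, which counts per gene do not separate. The sequence just before a RefSeq transcription start at position 93303757 is shown because the CREB site core TGACG occurs in it at 3 places, in capitals, at -56, -40 and -14 from that start (chr13:93303657-93303756, plus strand, RefSeq, GRCm38.p6).
Homer1: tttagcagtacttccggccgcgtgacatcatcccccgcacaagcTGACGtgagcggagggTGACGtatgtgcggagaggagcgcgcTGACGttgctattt
This window lies upstream of that start but inside the longer gene span of GENCODE. Of 32851 RefSeq promoter windows of 100 bases, 10.5% held TGACG on either strand and 0.262% held it 3 or more times. The other RefSeq start of Homer1 in the table, at 93308034, had none in its window, and a match of letters is not a measured binding site.

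In neurons, Homer1 was lowest in ATV:BACE1 and highest in Malat1 ASO within every batch that held both. In CPM after TMM scaling, the ATV:BACE1 libraries held 316, 245 and 204 in replicates 1, 4 and 5. The nonTV:Malat1 libraries held 460, 327 and 226. The OTV:Malat1 libraries held 483, 316 and 255, and the Malat1 ASO libraries 545 and 335 in replicates 1 and 5. Replicate 1 was the highest library of each group and replicate 5 the lowest, so the groups overlap when batch is ignored, and the order appears only between libraries of the same batch.

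The Malat1 ASO group had a mean of 440 ± 148 (SD, n = 2) against 255 ± 56.9 (SD, n = 3) in ATV:BACE1, and the fitted difference was 0.75 on the log2 scale (SE 0.08). The same ratio within batch 1 was 0.78 and within batch 4 was 0.72. As this is the result that selected the gene, it is a description only. Both conjugates also lay above ATV:BACE1 in each of the 3 batches. OTV:Malat1 differed by 0.43 (SE 0.07), with an adjusted p of 0.219 in edgeR. nonTV:Malat1 differed by 0.37 (SE 0.07), with an adjusted p of 0.948 in edgeR. Neither passed the threshold of 0.05 over the 20719 genes tested, and both comparisons share their ATV:BACE1 libraries with the one that selected Homer1. DESeq2 with the same batch term called both, with adjusted p of 0.000950 for OTV:Malat1 and 0.0472 for nonTV:Malat1, so the call depends on the tool. Over the alternatives run in edgeR the adjusted p of Homer1 in OTV:Malat1 ran from 0.0528 to 1.00.

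**Figure D1:**
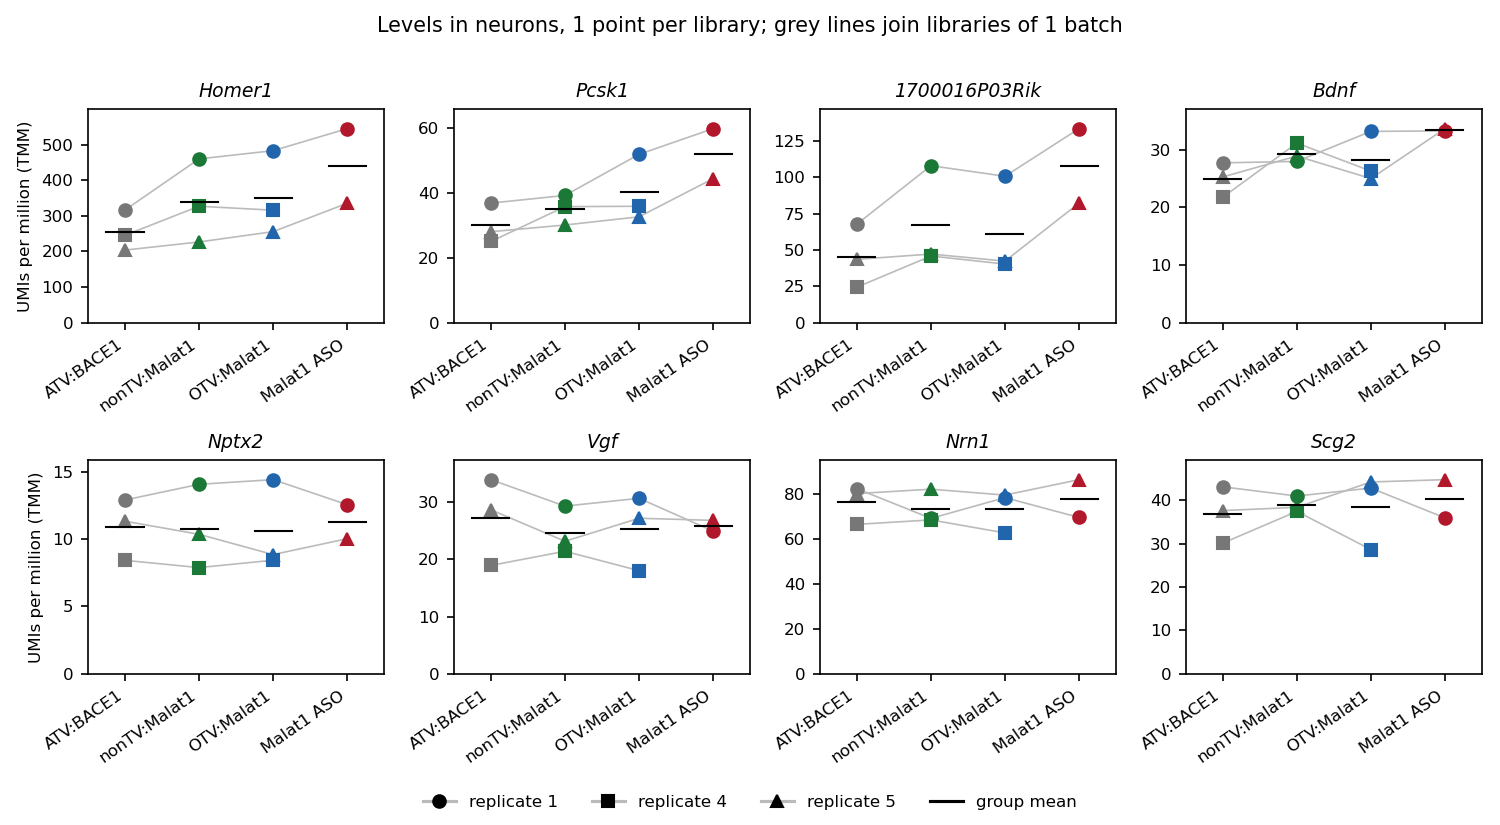
Level of each gene in neurons (y axis, TMM-scaled CPM, from 0) in the 4 groups (x axis), with 1 point per library, its shape giving the replicate, a grey line joining libraries of 1 batch and a black bar at the group mean. Homer1 runs from 204 in ATV:BACE1 replicate 5 to 545 in Malat1 ASO replicate 1, while Nptx2, Vgf, Nrn1 and Scg2 show no such climb along the grey lines.

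Pcsk1 encodes prohormone convertase 1, which cuts precursors of neuropeptides and of other secreted proteins inside dense-core vesicles. It lies at chr13:75089826-75134861 on the plus strand. The bases before its first annotated exon are shown because they hold the full CREB site TGACGTCA at -78 and another TGACG at -50 from the RefSeq start at 75089857, both in capitals (chr13:75089757-75089825, plus strand, RefSeq, GRCm38.p6).
Pcsk1: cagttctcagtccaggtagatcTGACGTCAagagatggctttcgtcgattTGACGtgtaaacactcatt
TGACGTCA was in 1.15% of the 32851 windows. It reads the same on both strands and so contains TGACG on each, which puts Pcsk1 among the windows with 3 or more as well.

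Like Homer1, Pcsk1 was lowest in ATV:BACE1 and highest in Malat1 ASO within every batch that held both in neurons. The ATV:BACE1 libraries held 36.9, 25.0 and 28.0 CPM in replicates 1, 4 and 5, and the nonTV:Malat1 libraries 39.2, 35.8 and 30.1. The OTV:Malat1 libraries held 51.9, 35.9 and 32.7, and the Malat1 ASO libraries 59.9 and 44.4. Both Malat1 ASO libraries stood above every library of ATV:BACE1 and nonTV:Malat1, while replicate 5 stood below OTV:Malat1 replicate 1. The fitted difference of Malat1 ASO from ATV:BACE1 was 0.74 on the log2 scale (SE 0.10), again a description, and the 2 ratios within a batch were lower, at 0.66 and 0.70. OTV:Malat1 was above ATV:BACE1 in 3 of 3 batches by 0.41 (SE 0.09), with an adjusted p of 0.882 in edgeR and 0.119 in DESeq2. For nonTV:Malat1 the difference was 0.23 (SE 0.09), with an adjusted p that rounds to 1.00 in both.

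1700016P03Rik is a non-coding RNA gene whose transcript is the host of the microRNAs miR-212 and miR-132, which CREB is known to induce. It lies at chr11:75172560-75177633 on the plus strand, with 3 exons in its 1 annotated transcript. Both microRNAs lie in its intron 1. Their mature 3p strands are shown because they share the seed, bases 2 to 8, in capitals (RefSeq, GRCm38.p6, plus strand).
mmu-miR-212-3p: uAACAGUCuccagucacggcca
mmu-miR-132-3p: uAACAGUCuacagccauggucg
They were matched to chr11:75173443-75173464 and chr11:75173723-75173744. The UMIs count the host transcript and say nothing of the level of the mature microRNAs. The gene Ovca2 overlaps 1700016P03Rik on the opposite strand, and whether the authors counted by strand is not given in the sources used here.

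1700016P03Rik showed the largest fitted difference of the 8 genes between Malat1 ASO and ATV:BACE1 in neurons, 1.04 on the log2 scale (SE 0.14). The 2 ratios within a batch were lower, at 0.92 and 0.98. The ATV:BACE1 libraries held 67.8, 24.4 and 43.6 CPM in replicates 1, 4 and 5, and those of nonTV:Malat1 held 108, 45.9 and 47.2. The OTV:Malat1 libraries held 101, 40.3 and 42.4, and the Malat1 ASO libraries 134 and 82.3. The groups overlapped, with replicate 1 far above the rest in each, and OTV:Malat1 replicate 5 lay marginally below its ATV:BACE1 partner (log2 ratio -0.04). Against ATV:BACE1 the difference was 0.41 (SE 0.13) in OTV:Malat1 and 0.56 (SE 0.13) in nonTV:Malat1, both with adjusted p that round to 1.00 in edgeR. DESeq2 gave 0.0472 for nonTV:Malat1 and an adjusted p that rounds to 1.00 for OTV:Malat1.

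Bdnf, the brain-derived neurotrophic factor, is released by active neurons and strengthens synapses through the receptor TrkB. It was not among the 3 genes that selected the list. Its neuronal level was 27.7, 21.7 and 25.3 CPM in ATV:BACE1, in the order of replicates 1, 4 and 5. In Malat1 ASO it was 33.3 and 33.6. The conjugates held 28.0, 31.1 and 28.9 in nonTV:Malat1 and 33.2, 26.3 and 25.0 in OTV:Malat1. The 2 Malat1 ASO libraries were the highest of the 11, although OTV:Malat1 replicate 1 was almost as high. On the log2 scale Bdnf lay above ATV:BACE1 by 0.40 (SE 0.11) in Malat1 ASO. This difference was not called in edgeR and is given as a description only. The conjugates stood nearer to ATV:BACE1, nonTV:Malat1 at 0.24 (SE 0.10) and OTV:Malat1 at 0.17 (SE 0.10). Neither conjugate passed in edgeR (adjusted p rounds to 1.00 in both). Bdnf is overlapped on the opposite strand by Gm45346. Of 7 RefSeq starts of Bdnf, only the one at 109692436 on chromosome 2 had a TGACG in its window, at -35.

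The remaining 4 genes were not highest in Malat1 ASO in both of its batches. Nptx2, a secreted pentraxin that gathers AMPA receptors at synapses, had group means from 10.6 ± 3.34 in OTV:Malat1 (SD, n = 3) to 11.3 ± 1.79 in Malat1 ASO (SD, n = 2). Vgf, a precursor of secreted peptides, ranged from 24.7 ± 4.16 in nonTV:Malat1 to 27.2 ± 7.63 in ATV:BACE1 (SD, n = 3). Both were lower in Malat1 ASO than in ATV:BACE1 within each batch, by log2 differences of -0.11 (SE 0.12) for Nptx2 and -0.22 (SE 0.12) for Vgf in the fit. Leaving out 1 library moved these to between -0.20 (without ATV:BACE1 replicate 1) and -0.011 (without ATV:BACE1 replicate 5) for Nptx2 and between -0.40 and -0.044 (without Malat1 ASO replicates 5 and 1) for Vgf. Nrn1 encodes neuritin, a membrane-anchored protein that promotes neurite growth, and its means ran from 73.2 ± 7.71 in nonTV:Malat1 (SD, n = 3) to 77.9 ± 11.9 in Malat1 ASO (SD, n = 2). Scg2, a granin packed in dense-core vesicles, ran from 37.0 ± 6.52 in ATV:BACE1 (SD, n = 3) to 40.4 ± 6.24 in Malat1 ASO (SD, n = 2). Within every one of these 4 genes the library ranges of the 4 groups overlapped. Nrn1 and Scg2 moved in opposite directions in the 2 batches that hold Malat1 ASO, being lower than ATV:BACE1 in batch 1 and higher in batch 4.

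Scg2 also had TGACGTCA in its RefSeq promoter window, at -68, while its difference between Malat1 ASO and ATV:BACE1 was 0.02 on the log2 scale (SE 0.12), and -0.19 and 0.21 without Malat1 ASO replicates 5 and 1. The overlap of Nrn1 with Fars2 and Gm30177 on the opposite strand leaves its counts uncertain to the extent that strand was not used.

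**Figure D2:**
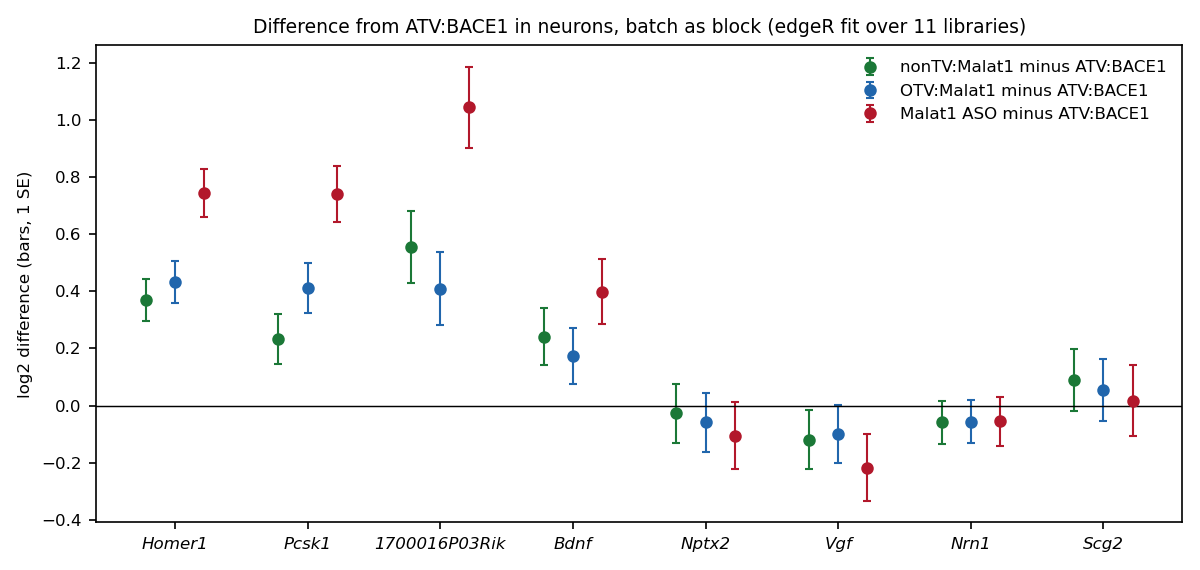
Difference from ATV:BACE1 in neurons (y axis, log2, bars show 1 SE) for the 8 genes (x axis) in nonTV:Malat1, OTV:Malat1 and Malat1 ASO, from 1 edgeR fit over 11 libraries with batch as block. Homer1, Pcsk1, 1700016P03Rik and Bdnf are above 0 in all 3 groups and highest in Malat1 ASO, the group the genes were selected on, while the other 4 genes stay within 0.22 of 0.

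Counted over the 8 genes in neurons, edgeR called 0 between OTV:Malat1 and ATV:BACE1, where 0.00483% of all genes were called, and 3 of the 8 had an unadjusted p under 0.05 (4.19% of all genes). It called 0 between nonTV:Malat1 and ATV:BACE1, where 0% of all genes were called, and 4 of the 8 had an unadjusted p under 0.05 (3.74% of all genes). Both comparisons use the ATV:BACE1 libraries on which the genes were selected, so nothing is read from these counts against the shares of all genes. DESeq2 called 1 of the 8 in the former, Homer1, and 2 in the latter, Homer1 and 1700016P03Rik, with 0.0241% of all genes called in each. Between Malat1 ASO and ATV:BACE1 edgeR called 3 of the 8, those that selected the list, where 0.0531% of all genes were called, and nothing is read from that count. These 3 were among 11 genes called there, the others being Gm47423, Frmd6, Arl5b, Gm10851, Kdm6b, Per1, Sgsm1 and, in the lower direction, B230217C12Rik. Leaving out ATV:BACE1 replicate 1 left only Homer1 called, and leaving out nonTV:Malat1 replicate 4 left 2. Over all fits with 1 library left out, the log2 difference ran from 0.67 to 0.82 for Homer1 and from 0.70 to 0.82 for Pcsk1. For 1700016P03Rik it ran from 0.88 to 1.26. Fits without a Malat1 ASO library leave 1 in that group, so only sizes of differences are taken from them.

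OTV:Malat1 and nonTV:Malat1 use none of the libraries that selected the genes, apart from the shared estimate of spread, and Malat1 had a log2 difference of -0.72 between them. Between them edgeR called 0 of the 8 genes in neurons, where 0.00483% of all genes were called, 0 had an unadjusted p under 0.05, and DESeq2 also called 0, where it called 0.0193% of all genes. Homer1 differed by 0.06 (OTV:Malat1 minus nonTV:Malat1, log2), with a 95% interval from -0.10 to 0.22. For Pcsk1 the interval was -0.01 to 0.36 around 0.18, and for 1700016P03Rik it was -0.42 to 0.12 around -0.15. Bdnf lay at -0.07, from -0.28 to 0.15. The intervals of the other 4 genes reached no further than 0.27 from 0 on either side. These bounds are not limits of detection, and the smallest difference that 3 libraries a group could detect was not tested. Calls were adjusted over 20719 genes. In the same fit Homer1 at 0.43 (SE 0.07) in OTV:Malat1 against ATV:BACE1, beyond its bound here, was not called.

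Levels differed between batches for most of these genes. The batch term was called for 7 of the 8 genes in neurons, all but Bdnf (adjusted p = 0.301 in edgeR), where 48.4% of all genes were called. It shares its libraries and estimate of spread with the comparison that selected the genes, so nothing is read from that count against the share. Relative to batch 1, Homer1 was lower by a log2 difference of -0.47 in batch 3 and -0.82 in batch 4 (adjusted p = 1.58e-05 in edgeR). For 1700016P03Rik the differences were -1.29 and -0.94, and for Pcsk1 -0.40 and -0.47. Nptx2 and Vgf were lowest in batch 3, at -0.73 and -0.64 against batch 1. Batch 1 is the only female batch, so its difference from batches 3 and 4 cannot be told apart from a difference of sex. Batches 3 and 4 were both male but differed in age, so batch and age cannot be told apart between them.

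The difference between groups was looked at within each neuronal cluster, since clusters took unequal shares of neurons across libraries. Cluster 0 held 33.5% to 44.1% of a library's neurons and had the highest excitatory markers (median 1012 CPM summed over 5 markers). Clusters 1 and 9 had high inhibitory markers (medians 2692 and 2673 over 8 markers, within their spread), and cluster 2 the highest striatal markers (881 over 5). Thalamic or midbrain markers were also highest in clusters 1 and 9 (medians 1000 and 827, within their spread). Cluster 2 was also highest in cortical layer 5 markers (median 454) and layer 6 markers (1250, within the spread of cluster 0 at 1072). Its inhibitory markers had a median of 957. In cluster 5 astrocyte markers had a median of 1836 and oligodendrocyte precursor markers one of 1104. Oligodendrocyte markers had one of 2220 in cluster 9, so both clusters carry signal of another class beside the neuronal one. Called doublets made up 52.7%, 39.8% and 58.0% of cluster 5 in ATV:BACE1 replicates 1, 4 and 5. Malat1 ASO had 41.2% and 28.7% in replicates 1 and 5, and the conjugates 29.3% to 59.3%. In cluster 9 the shares were 46.7%, 49.7% and 52.85% in ATV:BACE1, against 47.0% and 35.7% in Malat1 ASO. No fit without called doublets was run in clusters, so their part in the cluster values was not tested. The share of cluster 2, where Homer1 was high, ran from 15.9% in ATV:BACE1 replicate 5 to 28.8% in nonTV:Malat1 replicate 1. It was 15.9% to 19.6% in ATV:BACE1 and 16.9% to 24.1% in Malat1 ASO.

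Homer1 was above its ATV:BACE1 partner of the same batch in clusters 0, 1, 2 and 5 for all 12 ratios of OTV:Malat1, all 12 of nonTV:Malat1 and all 8 of Malat1 ASO. The clusters of a library are not independent of each other, so these are counts and not replicates. In cluster 0 the ATV:BACE1 libraries held 396, 251 and 232 CPM in replicates 1, 4 and 5, and the OTV:Malat1 libraries 662, 363 and 293. Malat1 ASO held 713 and 420 there, the highest value of each of its batches. The fitted log2 difference of OTV:Malat1 from ATV:BACE1 was 0.54 (SE 0.10) in cluster 0, 0.26 in cluster 1, 0.36 (SE 0.07) in cluster 2 and 0.43 (SE 0.10) in cluster 5. Cluster 9, the smallest, gave -0.07. The difference of Malat1 ASO from ATV:BACE1 was 0.90 (SE 0.11) in cluster 0 and 0.82 (SE 0.11) in cluster 5, against 0.50 in cluster 1 and 0.53 in cluster 2. Whether the clusters differ from each other was not tested.

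Pcsk1 was above its ATV:BACE1 partner in 11 of 12 ratios of OTV:Malat1 over the same clusters, and 1700016P03Rik in 10 of 12. In cluster 2, Pcsk1 was at 19.0, 13.7 and 17.6 CPM in ATV:BACE1 replicates 1, 4 and 5 and at 34.6, 21.5 and 23.4 in OTV:Malat1. The log2 difference of 0.66 (SE 0.12) did not pass (adjusted p = 0.0937 in edgeR, which called 0.017% of all gene and cluster pairs). This pair was singled out after its values were seen, and its ATV:BACE1 libraries are those on which Pcsk1 was selected. Bdnf in cluster 9 went the other way, below its partner in 3 of 3 ratios of both conjugates, with few UMIs (131 over 11 libraries).

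Over 39 pairs of a gene and a cluster, edgeR called 0 between OTV:Malat1 and ATV:BACE1 (background 0.017%), 0 between nonTV:Malat1 and ATV:BACE1 (background 0%) and 0 between the 2 conjugates (background 0.00786%). Unadjusted p under 0.05 occurred in 12, 10 and 3 of the 39, against 4.54%, 4.1% and 4.13% of all pairs, and DESeq2 was not run in clusters. The first 2 counts use the ATV:BACE1 libraries on which the genes were selected, so nothing is read from them against those shares. For Malat1 ASO against ATV:BACE1, described only, 9 of 39 pairs were called, where 0.097% of all pairs were. They were Homer1 in clusters 0, 1, 2 and 5, and Pcsk1 and 1700016P03Rik in subsets of these. The batch term was called in 25 of 39 pairs, against 30.6% of all pairs, with all 8 genes called in cluster 0.

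**Figure D3:**
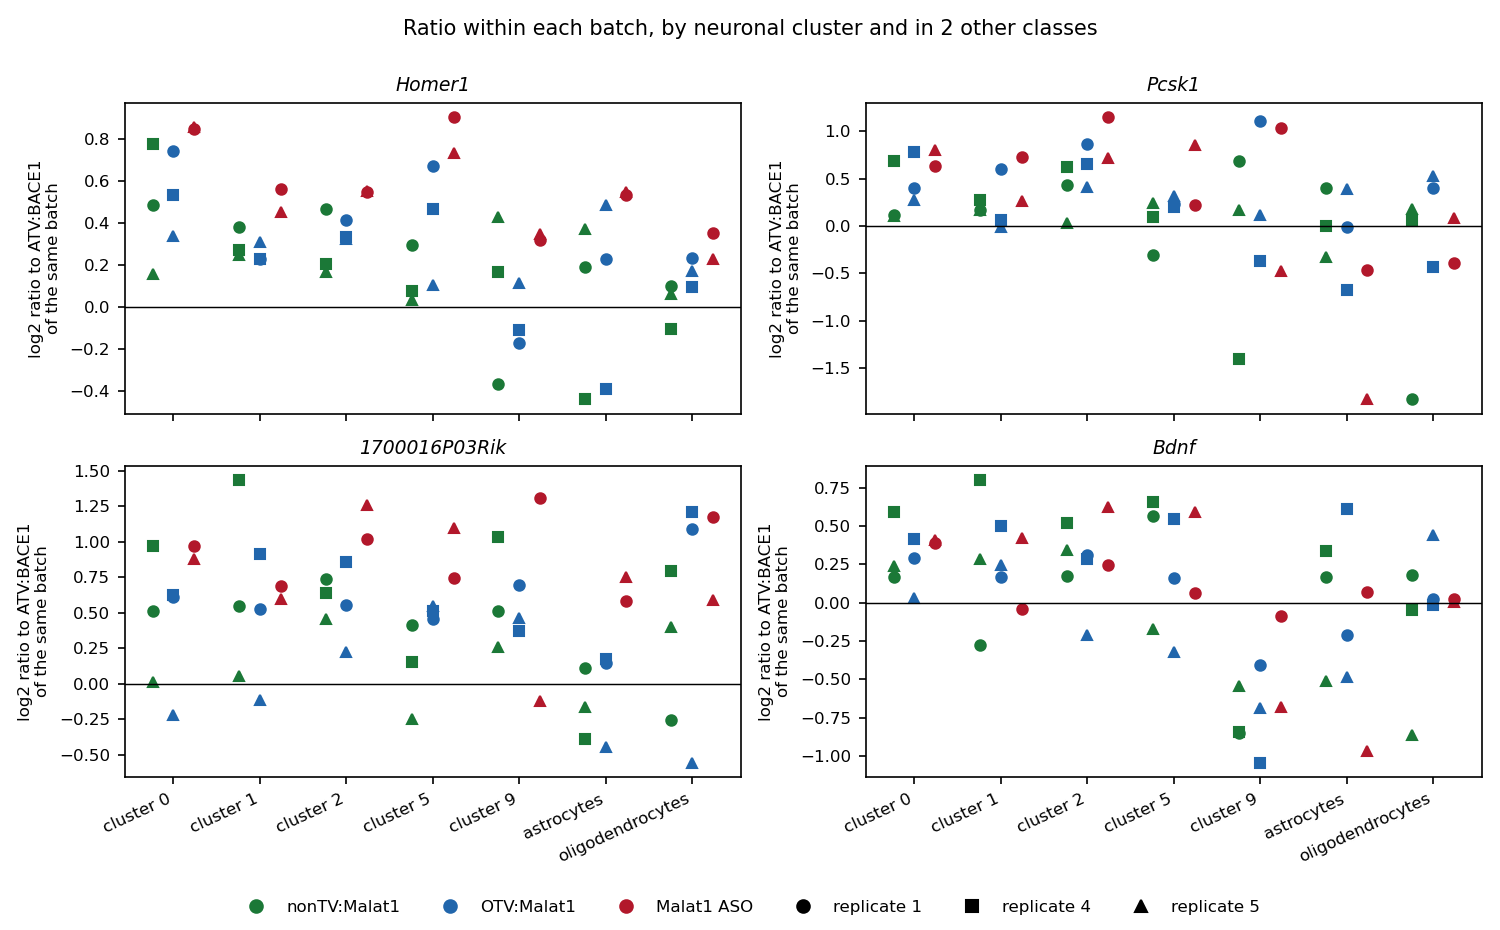
Log2 ratio of each library to the ATV:BACE1 library of its batch (y axis) for Homer1, Pcsk1, 1700016P03Rik and Bdnf by neuronal cluster and in astrocytes and oligodendrocytes (x axis), colour giving the group and shape the replicate. Every Homer1 point in clusters 0, 1, 2 and 5 is above 0, whereas in cluster 9 and in the glial classes some points of the conjugates lie below it.

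Across cell classes, Homer1 stood at 457 ± 109 CPM in cluster 2 (SD, n = 11), followed by 416 ± 165 in cluster 0 and 247 ± 92.3 in cluster 5. Clusters 2 and 0 did not differ beyond their spread. The class named glia in the deposited annotation had 149 ± 32.5 and cluster 1 had 124 ± 21.5, also within their spread, and cluster 9 had 99.1 ± 19.2. Oligodendrocytes, microglia, astrocytes and leptomeningeal cells followed between 72.3 and 83.6, which are neighbours within the spread, and pericytes and vascular endothelium were lowest at 46.6 and 43.7. Homer1 was thus higher in clusters 0 and 2 than in any non-neuronal class, but it was at 0 in none.

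Pcsk1 had a higher mean over libraries in each neuronal cluster than in the 7 other classes, but several of these classes overlapped the clusters. It was at 50.2 ± 15.1 in cluster 0 (SD, n = 11) and at 24.1 to 32.3 in the other neuronal clusters, which overlapped each other. Oligodendrocytes had 6.92 ± 2.12 and astrocytes 5.81 ± 2.09, and every library of both, at most 9.74, lay below every library of the neuronal clusters, the lowest of which held 10.9 in cluster 9. Microglia, at 13.8 ± 11.4 from 16 UMIs, ran from 0 to 36.6 and averaged 19.0 in replicate 4, where cluster 2 averaged 18.7. 1700016P03Rik was highest in cluster 2 (88.2 ± 45.8) and cluster 0 (70.7 ± 40.0), which overlapped, and at 14.1 to 14.8 in oligodendrocytes, microglia and astrocytes. Not every other class was that low. The class glia averaged 47.8, 18.0 and 35.4 in replicates 1, 4 and 5, beside 43.0, 18.9 and 27.8 in cluster 9. Vascular smooth muscle, with too few nuclei in some libraries, averaged 38.4, 46.3 and 42.6 over 4, 2 and 2 libraries. Each of these libraries held at most 51448 UMIs of all genes in this class, so few UMIs stand behind these values. Bdnf at 44.9 ± 7.02 and Nrn1 at 112 ± 8.82 were each highest in cluster 0, with cluster 5 next in both. For Nrn1, microglia averaged 87.3, 57.8 and 76.1 in replicates 1, 4 and 5, near cluster 5 at 78.9, 62.2 and 86.9. Oligodendrocytes, at 54.4, 44.0 and 54.3, lay above cluster 1 (41.5, 37.7 and 50.2) and clusters 2 and 9 in every replicate. The class glia, at 34.8, 30.9 and 44.1, lay below cluster 1. Nptx2 was also highest in cluster 0 (13.5 ± 3.95), within the spread of cluster 2.

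Vgf and Scg2 were not highest in neuronal clusters, and the other classes lay on both sides of the clusters. Scg2 was at 28.9 ± 5.40 in cluster 0 and 60.3 ± 9.29 in cluster 1, against 77.8 ± 23.8 in microglia, 77.7 ± 15.1 in oligodendrocytes and 74.8 ± 19.5 in vascular endothelium (SD, n = 11), which did not differ beyond their spread. Vascular smooth muscle, with enough nuclei in 8 libraries, had 125 ± 46.4 from 39 UMIs. Astrocytes at 56.4 ± 15.8 and pericytes at 48.7 ± 18.5 lay below cluster 1 in mean, within the spread, and the class glia at 31.2 ± 7.52 had a lower mean than every neuronal cluster but cluster 0, with library ranges that overlap them. Vgf was at 23.7 ± 4.83 in cluster 0 and at 42.9 ± 7.65 in oligodendrocytes, with vascular endothelium at 42.5 ± 20.1 and vascular smooth muscle at 66.7 ± 63.6 (SD, n = 8) from 24 UMIs, while glia had 23.0 ± 9.09, within the spread of the neuronal clusters at 21.4 to 29.4. Thinned to 1000 UMIs per nucleus, a Scg2 UMI occurred in 2.93% to 5.30% of neurons and in 4.63% to 9.89% of oligodendrocytes, and a Vgf UMI in 1.70% to 3.56% and 2.34% to 5.71%. Neurons had median depths of 2567 to 5259 UMIs and oligodendrocytes of 707 to 1138, and 37.7% to 81.5% of the oligodendrocytes were too shallow for thinning and were left out. Without thinning the Scg2 shares were 11.05% to 18.5% and 5.71% to 11.3%. At matched depth the ranges in oligodendrocytes thus reached higher than those in neurons, and the part of free RNA in these shares was not tested.

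**Figure D4:**
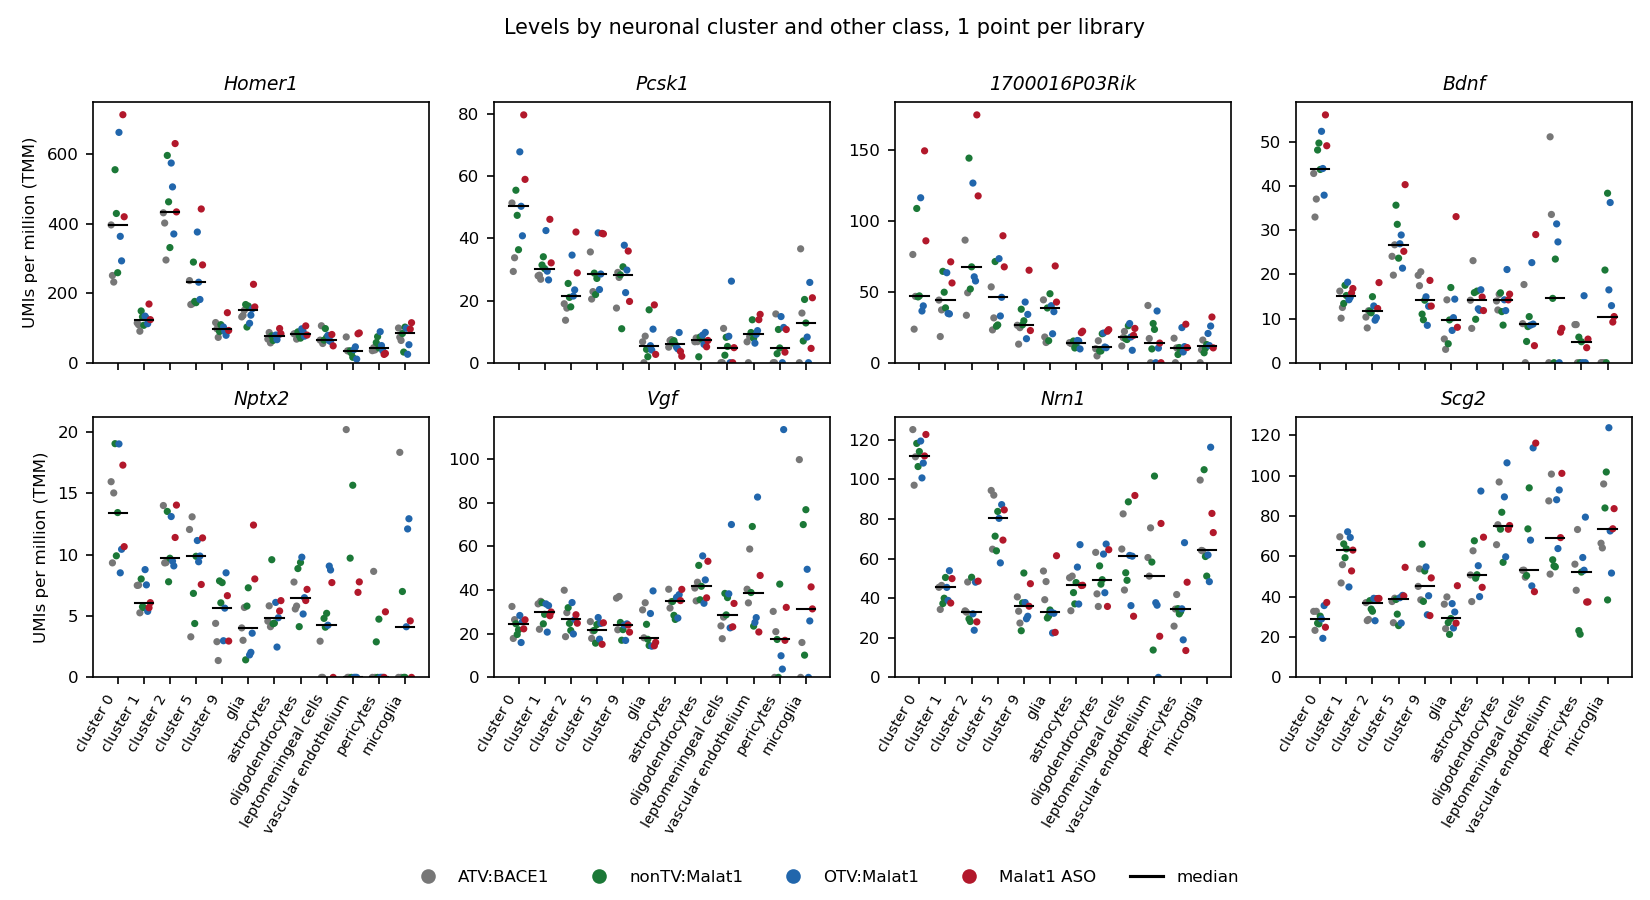
Level of each gene (y axis, TMM-scaled CPM, from 0) in 5 neuronal clusters and 7 other classes (x axis), with 1 point per library coloured by group and a bar at the median. Homer1 is highest in clusters 2 and 0, Pcsk1 is at most 9.74 in astrocytes and oligodendrocytes but reaches 36.6 in a microglia library, and Scg2 is lower in cluster 0 than in oligodendrocytes.

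Homer1 was also counted per nucleus, with each nucleus thinned to 1 depth. The shares and means that follow move with the mean level and are no separate result. At 1000 UMIs per nucleus, 23.0%, 18.2% and 17.4% of neurons held at least 1 Homer1 UMI in ATV:BACE1, listed by replicate as above. In Malat1 ASO the shares were 30.4% and 23.3%. The shares were 28.5%, 21.7% and 18.7% in nonTV:Malat1 and 29.1%, 21.6% and 20.1% in OTV:Malat1. In each batch ATV:BACE1 had the smallest share. The share with at least 3 UMIs was 1.51%, 0.647% and 0.526% in ATV:BACE1 and 3.92% and 2.29% in Malat1 ASO. The mean count among positive neurons was 1.36, 1.24 and 1.20 UMIs in ATV:BACE1 and 1.60 and 1.46 in Malat1 ASO. It was 1.48, 1.36 and 1.24 in nonTV:Malat1 and 1.58, 1.30 and 1.31 in OTV:Malat1. Between 1.35% and 5.98% of neurons were too shallow and left out. Unthinned shares ran from 42.5% to 64.8% over the 11 libraries. In oligodendrocytes 5.56% to 9.58% of nuclei held a Homer1 UMI after thinning and 6.37% to 11.2% before, at most 0.167% held 3 or more, and ATV:BACE1 had the smallest thinned share in batch 3 only.

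**Figure D5:**
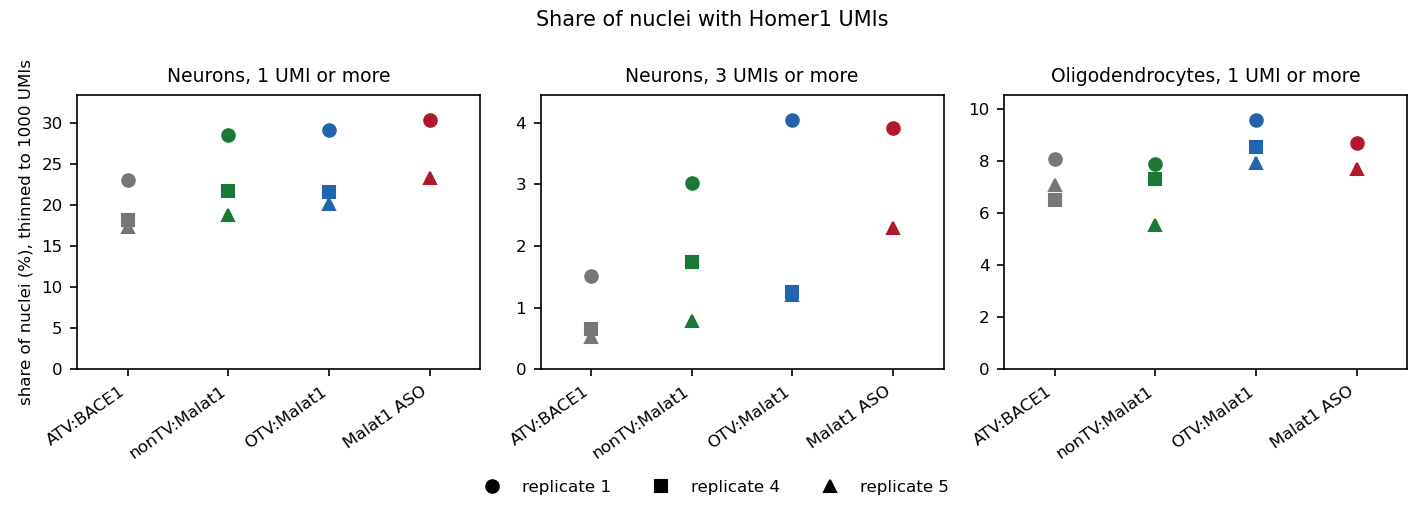
Share of nuclei (y axis, percent, each nucleus thinned to 1000 UMIs) with at least 1 and at least 3 Homer1 UMIs in neurons and with at least 1 in oligodendrocytes, by group (x axis), with 1 point per library and its shape giving the replicate. In neurons the share with 1 or more runs from 17.4% to 30.4%, and in oligodendrocytes from 5.56% to 9.58%.

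Outside neurons, 31 pairs of a gene and a class could be tested over 7 classes, with all 8 genes in astrocytes and oligodendrocytes and 2 to 5 in the others. edgeR called 0 of 31 between OTV:Malat1 and ATV:BACE1 (background 0.0157%), 0 between nonTV:Malat1 and ATV:BACE1 (background 0.035%) and 0 between the conjugates (background 0.0332%). Unadjusted p under 0.05 occurred in 1, 2 and 2 of them, near the 4.63%, 4.72% and 4.05% of all pairs, and DESeq2 was not run in these classes. For Malat1 ASO against ATV:BACE1, described only, 0 of 31 were called, where 0.0472% of all pairs were, and 6 of 31 had an unadjusted p under 0.05, where 6.16% of all pairs did. Nothing is read from these counts. The difference of Malat1 ASO from ATV:BACE1 for 1700016P03Rik in astrocytes and oligodendrocytes was 0.64 (SE 0.26) and 1.00 (SE 0.34) on the log2 scale, from 318 and 241 UMIs over 11 libraries. Homer1 stood at 0.37 (SE 0.16) and 0.27 (SE 0.15), while Pcsk1 stood at -1.06 (SE 0.52) in astrocytes, from 118 UMIs. In oligodendrocytes 0.231% to 2.05% of nuclei held a 1700016P03Rik UMI after thinning, against 2.17% to 10.2% of neurons, and the part of free RNA in these glial values was not tested. The batch term was called for 2 of 31 pairs, Nrn1 and Scg2 in astrocytes, against 10.2% of all pairs.

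Among the fast activity genes, most lay below ATV:BACE1 in the neurons of the other groups. Of 29 fast genes tested, such as Fos, Junb, Arc and Egr1, edgeR called 0 between OTV:Malat1 and ATV:BACE1, 0 between nonTV:Malat1 and ATV:BACE1, and 1, Per1, in Malat1 ASO (log2 0.54, SE 0.08). Unadjusted p under 0.05 occurred in 16, 11 and 16 of the 29, where 4.19%, 3.74% and 9.43% of all genes had one, and DESeq2 called 0, 0 and 6 (Egr1, Egr3, Jun, Klf10, Nr4a3 and Per1), the last among 19 of the 29 that it gave an adjusted p. It called 0.0241%, 0.0241% and 0.542% of all genes with one. These 3 comparisons share the ATV:BACE1 libraries. The median log2 difference was -0.33 in OTV:Malat1, -0.23 in nonTV:Malat1 and -0.26 in Malat1 ASO, beside medians of all genes from -0.0018 to 0.0074. Only 8, 6 and 9 of the 29 were above 0. Without ATV:BACE1 the picture differed: Malat1 ASO against OTV:Malat1 had a median of 0.18 with 21 of 29 above 0, and against nonTV:Malat1 a median of 0.044 with 16 of 29. Nr4a3, a nuclear receptor induced by activity, had the highest difference of the list in all 3 groups, with 0.80 (SE 0.19), 0.73 (SE 0.19) and 1.27 (SE 0.21), none of them called in edgeR. Atf3 was next in Malat1 ASO at 1.17 (SE 0.48). Junb, a partner of Fos, was at -0.81 (SE 0.18) in OTV:Malat1 and -0.80 (SE 0.20) in Malat1 ASO, also not called, and Ier2 was next lowest in Malat1 ASO at -0.74 (SE 0.25). For Junb the ATV:BACE1 libraries held 77.0, 11.2 and 60.4 CPM, by replicate, and the Malat1 ASO libraries 32.8 and 36.9. Junb thus lay below its ATV:BACE1 partner in both batches in which Homer1 lay above.

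The wider list of delayed and late activity genes had medians near 0. Of 38 tested, 0 were called in any of the 3 comparisons with ATV:BACE1 in edgeR, with unadjusted p under 0.05 in 6, 6 and 8, where 4.19%, 3.74% and 9.43% of all genes had one, while DESeq2 called 0 in OTV:Malat1, Tiparp in nonTV:Malat1, and Tiparp and Zdbf2 in Malat1 ASO, among 27 of the 38 that it gave an adjusted p. The medians were 0.016 in OTV:Malat1, 0.0013 in nonTV:Malat1 and -0.0095 in Malat1 ASO. Tiparp, an ADP-ribosyltransferase, stood highest in nonTV:Malat1 and Malat1 ASO and next to Gpr3 in OTV:Malat1, with 0.54 (SE 0.13), 0.64 (SE 0.13) and 0.86 (SE 0.14). In Malat1 ASO Baz1a was next at 0.52 (SE 0.12), and Bmp3 and Rgs4 were lowest at -0.43 (SE 0.15) and -0.42 (SE 0.15). Rgs2, a regulator of G protein signalling, was lowest in both conjugates, with -0.42 (SE 0.11) in OTV:Malat1 and -0.35 (SE 0.11) in nonTV:Malat1.

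For the partners of the products of these genes and their regulators, edgeR and DESeq2 called 0 in each of 4 lists in the same comparisons. Unadjusted p under 0.05 occurred in at most 4 genes of a list, the 4 being among 22 CREB, MEF2 and SRF regulators in Malat1 ASO, where 9.43% of all genes had one. Of 17 Homer partners and synaptic scaffold genes, 15 were above 0 in Malat1 ASO with a median of 0.044, led by Dlg4, which encodes PSD-95, at 0.21 (SE 0.08) and Shank2 at 0.14 (SE 0.08). Homer3 and Cacna1c were lowest there, both at -0.01 (SE 0.19 and 0.07). Of 12 genes of prohormone processing and dense-core granules, the median was 0.018 in Malat1 ASO, and Cpe, a carboxypeptidase that acts after Pcsk1, had 0.22 (SE 0.07), followed by Sort1 at 0.13 (SE 0.07). Pcsk1n, which encodes an inhibitor of the Pcsk1 enzyme, was lowest at -0.17 (SE 0.17), and Cadps2 was at -0.11 (SE 0.07). For 9 receptors and partners of BDNF and the pentraxins the median was -0.016, with Ntrk2, the gene of TrkB, at 0.24 (SE 0.11) and Sorl1 at 0.16 (SE 0.08). Ngfr, a neurotrophin receptor, was lowest at -0.43 (SE 0.47), and at -0.49 (SE 0.38) in OTV:Malat1, with no library above 0.465 CPM, and Nptxr was at -0.07 (SE 0.10) in Malat1 ASO. Of 22 CREB, MEF2 and SRF regulators, 18 were above 0 with a median of 0.089, and Mef2d and Srf were highest at 0.26 (SE 0.07) and 0.24 (SE 0.16), Mapk3 and Mef2c lowest at -0.25 (SE 0.13) and -0.18 (SE 0.07). In OTV:Malat1 and nonTV:Malat1 the medians of these 4 lists lay between -0.031 and 0.021. There 11 and 5 of the 17 Homer partners and scaffold genes, and 10 and 14 of the 22 regulators, were above 0. The median of all genes in Malat1 ASO was -0.0018. The share of all genes above 0 was not counted, and nothing is read from these counts.

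The genes whose neuronal level was most like that of Homer1 over the 11 libraries, after centring each batch, were Gpt2 (r = 0.981), Gpd1 (0.970), Gm10851 (0.967), Frmd6 (0.966) and Pdlim7 (0.960), out of 12391 ranked. Most like Pcsk1 were Med14 (r = 0.957), Rbbp8 (0.953), Pcdhb16 (0.948), Stk40 (0.938) and Zfp131 (0.936). Kpna4 (r = 0.962), Zfp131 (0.961), Rbbp7 (0.958), Txndc11 (0.958) and Pi4k2a (0.958) were most like 1700016P03Rik. Among the set itself, 1700016P03Rik ranked 31st for likeness to Homer1 (r = 0.919), Pcsk1 43rd (0.910) and Bdnf 516th (0.755). Nptx2, Vgf and Nrn1 had negative r with Homer1, at -0.24, -0.38 and -0.27, and Scg2 had 0.18. These r describe 11 libraries that include the ones used to select the genes, and libraries differ in depth and in the makeup of their neurons, so no p is given.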

How the data were processed

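Nuclei from 11 frozen brain samples in 4 groups were profiled on a droplet platform. Per the submitters' processing notes, Cell Ranger 5.0.0, Seurat 4 and the genome mm10 were used, with no further parameters given in the sources used here. The authors deposited a matrix of UMI counts per gene and nucleus. The deposited metadata also hold the percentage of mitochondrial counts per nucleus, and doublet and class prediction scores per nucleus as fractions, beside the class, cluster, doublet call and batch. Doublet calls are as deposited and called doublets were kept. Per-sample columns left unused numbered 0.

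Counts were summed per library and class or cluster, with at least 20 nuclei. Genes passing edgeR's expression filter were tested with edgeR 4.0.16 (quasi-likelihood, TMM, batch as block, Benjamini-Hochberg over all genes, threshold 0.05). DESeq2 1.42.0 in R 4.3.3 was the alternative. The fit was tested on simulated data. Libraries of the same replicate number deviated together from their group means (r from 0.593 to 0.867 over 15 pairs and 12392 genes). Pairs of different number and different group had r from -0.82 to 0.428 (30 pairs). Deviations within a group sum to 0, which by itself lowers the latter, so this is no test of the pairing. The pairing comes from the deposited batch column. Log2 CPM for likeness had a prior count of 2 and a minimum mean of 5 CPM. Nuclei were thinned to 1000 UMIs.

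The 8 genes and all lists (fast activity genes, delayed and late genes, Homer partners, prohormone processing, BDNF and pentraxin receptors, CREB, MEF2 and SRF regulators, and markers) were chosen with earlier results of these data known. All 8 genes passed the filter in neurons. Named genes were the members, the 2 highest and 2 lowest of each list in Malat1 ASO against ATV:BACE1, with some of those in the conjugates, and the 5 genes most alike. The genes called in Malat1 ASO and the list genes that DESeq2 called were named after their values were seen. RefSeq promoter entries were found for 4 of the 8 genes, not for 1700016P03Rik, Nptx2, Vgf and Nrn1. Gene positions are GENCODE M21. Alternatives were another tool, no block, library totals without TMM, no filter, no called doublets, all nuclei of the neuronal clusters, another thinning depth, and each library left out.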

Additional observations from a re-analysis of the deposited data

How the results depend on the processing

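With 2 or 3 libraries a group, differences inside the intervals given above, and larger ones, could go uncalled. The batch, sex and age of the replicates cannot be told apart. In neurons, DESeq2 called 1 of the 8 genes (Homer1) between OTV:Malat1 and ATV:BACE1 and 2 (Homer1 and 1700016P03Rik) between nonTV:Malat1 and ATV:BACE1, where edgeR called 0. The cause was not tested. Leaving out each library gave 0 in these comparisons, 0 to 3 in Malat1 ASO against ATV:BACE1 and 6 to 7 for the batch term. Without the replicate block, 0 of the 8 genes were called in Malat1 ASO against ATV:BACE1, against 3 with it, and 0 in the tested comparisons as before, so pairing by batch changed no other count. At 2000 UMIs per nucleus, the mean share of neurons with Homer1 was 34.4% in ATV:BACE1, 37.9% in nonTV:Malat1, 39.3% in OTV:Malat1 and 42.2% in Malat1 ASO.

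Homer1, Pcsk1, 1700016P03Rik and Bdnf stayed above ATV:BACE1 in both conjugates under every alternative run. Leaving out 1 library, Homer1 ranged from 0.37 to 0.49 in OTV:Malat1 and from 0.31 to 0.46 in nonTV:Malat1, and 1700016P03Rik from 0.28 to 0.59 and from 0.41 to 0.73. Pcsk1 ranged from 0.33 to 0.48 and from 0.12 to 0.31, the lowest without nonTV:Malat1 replicate 4, and was at 0.14 in nonTV:Malat1 without ATV:BACE1 replicate 4. Bdnf ranged from 0.056 (without OTV:Malat1 replicate 1) to 0.26 (without OTV:Malat1 replicate 5) in OTV:Malat1 and from 0.13 (without nonTV:Malat1 replicate 4) to 0.34 in nonTV:Malat1, and without ATV:BACE1 replicate 4 it was at 0.10 and 0.15. Differences near 0 changed sign. Between Malat1 ASO and ATV:BACE1, leaving out 1 library gave Nrn1 -0.18 to 0.062 and Scg2 -0.19 to 0.21, without the replicate block Nptx2 was at 0.050 and Nrn1 at 0.030, and Scg2 was at -0.033 without called doublets and -0.020 with library totals without TMM. Between OTV:Malat1 and ATV:BACE1, leaving out 1 library gave Nptx2 -0.15 to 0.062, Nrn1 -0.12 to 0.014 and Scg2 -0.0099 to 0.16. Between nonTV:Malat1 and ATV:BACE1 it gave Nptx2 -0.11 to 0.054, Vgf -0.25 to 0.00024, Nrn1 -0.12 to 0.0093 and Scg2 -0.055 to 0.19, and without called doublets Nptx2 was at 0.024. Between OTV:Malat1 and nonTV:Malat1 it gave Homer1 -0.021 to 0.13, Bdnf -0.18 to 0.047, Nptx2 -0.12 to 0.089, Vgf -0.10 to 0.15, Nrn1 -0.054 to 0.060 and Scg2 -0.14 to 0.11. For that pair, library totals without TMM gave Nptx2 0.011 and Scg2 0.0046, and all nuclei of the neuronal clusters gave Nrn1 -0.00088.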
